A study of Mus musculus with 3 samples.

Results

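The genes described are the 3 TGF-beta ligands (Tgfb1, Tgfb2, Tgfb3), the 3 classical receptors (Tgfbr1, Tgfbr2, Tgfbr3) and the 4 latent TGF-beta binding proteins (Ltbp1, Ltbp2, Ltbp3, Ltbp4). They were taken by name: every probe of the bead array whose gene symbol in the deposited table equals one of these names was used. The rule found 30 probes among 46632, and they stand for 10 of the 20974 genes named on the array. All 10 genes had at least 1 probe that was detected on at least 1 array.

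TGF-beta is made as a precursor from which furin-type proteases cut a mature dimer, and the propeptide stays wrapped around that dimer and keeps it latent. A latent TGF-beta binding protein can be disulfide-linked to the propeptide and anchors the complex in fibrillin-rich extracellular matrix, from which integrins, proteases or thrombospondin release the ligand. The freed ligand binds the type II receptor (Tgfbr2), which recruits and phosphorylates the type I receptor (Tgfbr1), which in turn phosphorylates Smad2 and Smad3. The type III receptor betaglycan (Tgfbr3) presents ligand, Tgfb2 above all. In the heart the pathway is known for endocardial cushion and valve formation, for coronary vessel development and for the activation of fibroblasts.

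Mouse hearts of 3 ages were dissociated and RNA of the cardiomyocyte preparations was read on Illumina bead arrays, with 1 array for each age. The samples were embryonic day 11 to 12, neonatal day 3 to 4 and adult of 10 weeks or more, all of a strain labelled as carrying eGFP with α-MHC on the DBA background, where α-MHC is the product of Myh6. Several hearts were pooled for each sample, so an array averages over animals, and the sources used here do not give the gate by which cells may have been sorted. With 1 array an age there was no spread between animals, no test and no p-value.

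The arrays detected 14066 (embryonic), 15355 (neonatal) and 14115 (adult) probes at a detection p below 0.01, and their raw intensities had medians of 72.2, 77.6 and 57.3. The labelled cell type was checked against 14 cardiomyocyte markers, of which the embryonic and neonatal arrays detected all and the adult array 10. Myh6, Ttn, Mybpc3 and Nkx2-5 were not detected in the adult array, and the summed normalized intensity of the list was 225000 (embryonic), 108000 (neonatal) and 5720 (adult). Fibroblast markers went the other way: 4 of 14 reached detection at the embryonic stage, 13 at the neonatal and 13 at the adult stage, with sums of 5240, 122000 and 152000. Tcf21 was the fibroblast marker not detected on any array, and Col1a1, Lum, Thy1 and Postn were among those not detected in the embryonic array. The neonatal and adult preparations are named by their labels below, and the part that these markers have in the results was not tested.

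Levels are given as log2 of the background-corrected, quantile-normalized intensity of a gene's brightest probe, and the value after ± is a standard error from the spread between beads of the same probe. That error measures how precisely 1 array was read and holds nothing of the variation between hearts. A call needed log2 values at least 1 apart (2-fold) and a probe detected on 1 or both arrays compared. Where only the brighter array detected it, the other side was raised to the lowest detected level of its own array, which makes the fold a lower bound on the quantile-normalized scale, and another scaling shifts it. Levels of different genes come from different probes and are not compared with each other.

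Between the neonatal and the embryonic array, 6 of the 10 genes were called higher in the neonatal array, 4 stayed under 2-fold and 0 were lower. Among all 10560 genes measured over this pair, 34.8% passed 2-fold, 17.6% upwards and 17.2% downwards. The median difference of the 10 genes was 2.52 and that of all genes measured was -0.10. Over the same pair the median of fibroblast markers was 6.26, of macrophage markers 3.41, of smooth muscle and pericyte markers 3.26 and of cardiomyocyte markers -1.62, and their part in these differences was not tested. In these bulk preparations, fewer cells of a type and less RNA of a gene in each cell cannot be told apart. The 6 genes were Tgfb1 and Tgfb3, Tgfbr2, and Ltbp2, Ltbp3 and Ltbp4, so each of the 3 roles had genes past 2-fold and genes under it.

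**Figure D1:**
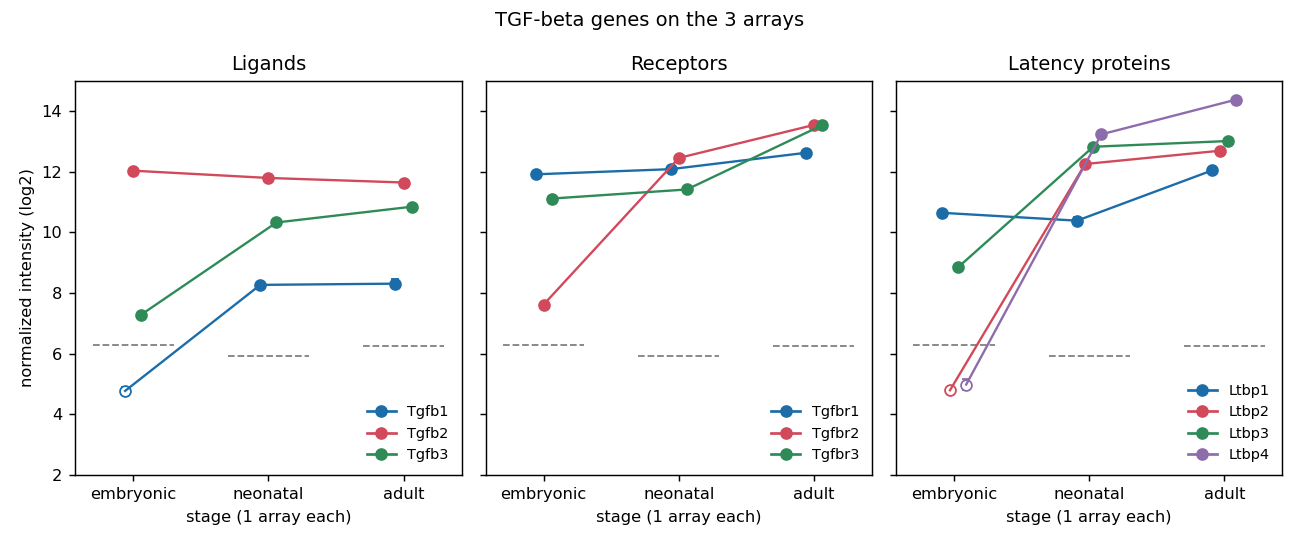
Normalized intensity (log2) of the brightest probe of each gene by stage, 1 array each, with ligands, receptors and latency proteins in separate panels. Filled circles were detected and open ones were not, bars are bead standard errors (mostly smaller than the symbol), and grey dashes mark the lowest level detected on each array. Tgfb1, Ltbp2 and Ltbp4 are open in the embryonic array, and Tgfb2 stays between 11.65 and 12.04.

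Tgfb1 encodes the ligand best known from platelets, immune cells and fibrosis. Its only probe had raw intensities of 63.9 (embryonic), 464.2 (neonatal) and 233.6 (adult). On the log2 scale it was not detected in the embryonic array (4.77) and stood at 8.27 and 8.31 in the neonatal and adult arrays. The neonatal level was at least 4-fold higher than the embryonic one. The adult and neonatal levels lay within the bead error of each other (adult minus neonatal 0.03, 95% bead interval -0.33 to 0.39).

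Tgfb2, the ligand of the cushion and outflow tract in the developing heart, was bright on every array. Its level was 12.04 (embryonic), 11.80 (neonatal) and 11.65 (adult), from raw intensities of 4690.8, 4862.8 and 1845.3. Both steps were small: -0.23 ± 0.07 for neonatal minus embryonic and -0.15 ± 0.07 for adult minus neonatal. The other Tgfb2 probe, a dim one, gave -0.27 ± 0.13 and 0.21 ± 0.15 for the same steps. Tgfb2 was the ligand for which no pair of arrays lay 2-fold apart, except under the other scalings given below.

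Tgfb3, known for palate and lung development, had raw intensities of 201.5, 1794.4 and 1084.7 from the embryonic to the adult array. Its level was 7.29 (embryonic), 10.33 (neonatal) and 10.85 (adult). The neonatal level was 8.23-fold higher than the embryonic one (3.04 ± 0.09), and the adult level differed from the neonatal one by 0.51 ± 0.08, under 2-fold. The 3 ligands thus held different orders: Tgfb1 and Tgfb3 were low or undetected in the embryonic array alone, while Tgfb2 was near its own level throughout.

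Of the receptors, Tgfbr2 was past 2-fold between the neonatal and the embryonic array, and Tgfbr1 and Tgfbr3 were not. Tgfbr1, the type I receptor kinase ALK5, stood at 11.92 (embryonic), 12.09 (neonatal) and 12.63 (adult). Neonatal minus embryonic was 0.17 ± 0.08 and adult minus neonatal 0.55 ± 0.08. No pair of arrays put it at 2-fold. A dimmer Tgfbr1 probe, not detected in the neonatal array, went the other way for neonatal minus embryonic (a bound of -0.88), and the mean over all 3 probes gave -0.54.

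Tgfbr2, the type II receptor that binds Tgfb1 and Tgfb3 directly, had raw intensities of 243.9 (embryonic), 7470.3 (neonatal) and 7261.1 (adult). Its level was 7.62 (embryonic), 12.46 (neonatal) and 13.55 (adult). That put it 28.7-fold higher in the neonatal than in the embryonic array (4.84 ± 0.11), the widest range of the 3 receptors. With the mean over all 4 of its probes, of which 2 were detected on no array, the same difference was 1.56.

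Tgfbr3, betaglycan, followed neither pattern. It stood at 11.12 (embryonic), 11.42 (neonatal) and 13.54 (adult), with raw intensities of 2481.3, 3712.2 and 7216.1. Neonatal minus embryonic was 0.30 ± 0.06, under 2-fold, and the adult level was 4.37-fold higher than the neonatal one (2.13 ± 0.06). Its dimmer probe gave 0.19 ± 0.23 and 1.55 ± 0.18 for these steps.

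Of the latency proteins, 3 were far higher in the neonatal than in the embryonic array and Ltbp1 was not. Ltbp4, which binds latent Tgfb1 and organises elastic fibres, had raw intensities of 73.1 (embryonic), 12291.1 (neonatal) and 16179.8 (adult). It was not detected in the embryonic array (4.98) and was at 13.24 (neonatal) and 14.39 (adult). The neonatal level was at least 125-fold higher than the embryonic one, the largest bound among the 10 genes, and the adult level was 2.22-fold higher than the neonatal one (1.15 ± 0.08).

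Ltbp2, a fibrillin-binding family member that does not bind latent TGF-beta, showed the same step. It was not detected in the embryonic array (4.79) and stood at 12.26 (neonatal) and 12.70 (adult), from raw intensities of 64.9, 6523.7 and 3852.0. The neonatal level was at least 63.4-fold higher than the embryonic one, and adult minus neonatal was 0.44 ± 0.07. With the mean over its 3 probes, 2 of them detected on no array, neonatal minus embryonic was a bound of 2.29. The lowest detected level behind that bound was taken anew over the means of genes.

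Ltbp3, which helps to secrete and anchor latent TGF-beta in bone and vessel wall, was detected on all arrays. Its level was 8.85 (embryonic), 12.83 (neonatal) and 13.02 (adult), with raw intensities of 533.7, 9427.8 and 4959.8. It was 15.7-fold higher in the neonatal than in the embryonic array (3.98 ± 0.07). Its second brightest probe gave 3.92 ± 0.09 for that pair and 0.14 ± 0.08 for adult minus neonatal, close to the 0.19 ± 0.05 of the brightest. The other Ltbp3 probes, both undetected in the embryonic array, gave bounds of 0.90 and 0.00 for neonatal minus embryonic and no call, and the mean over all 4 probes gave 2.87.

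Ltbp1, the first described of the family and the partner of Tgfb1 in platelets and fibroblasts, was detected on all arrays. Its brightest probe read 10.65 (embryonic), 10.39 (neonatal) and 12.05 (adult), from raw intensities of 1781.7, 1858.2 and 2406.8. Neonatal and embryonic levels lay within the bead error (-0.26 ± 0.13, 95% bead interval -0.51 to 0.00). The adult level was 3.16-fold higher than the neonatal one (1.66 ± 0.13). That difference rests on this probe, which the array annotates to transcript variant 2: the other detected Ltbp1 probe, annotated to variant 1, gave 0.32 ± 0.25, and the mean over all 8 probes gave 0.40. A further probe annotated to variant 2 was detected on no array.

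**Figure D2:**
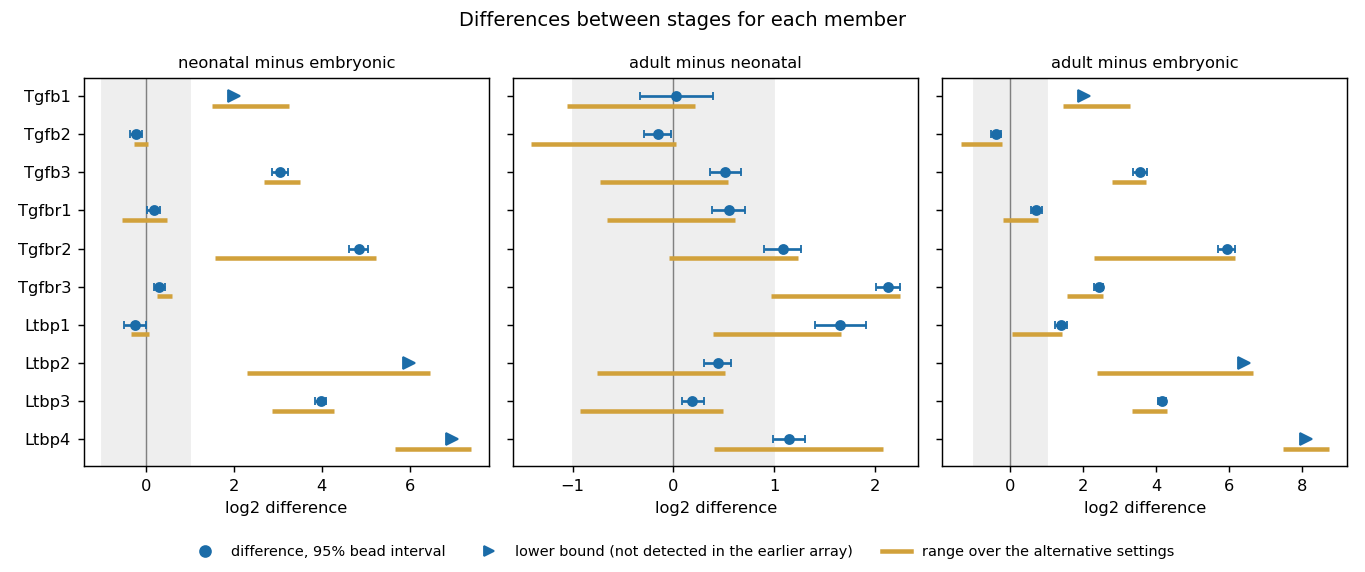
Log2 difference of each gene for the 3 pairs of arrays, with circles and 95% bead intervals where both arrays detected it, triangles for lower bounds, and the grey band marking under 2-fold. Yellow bars give the range over the alternative settings. In the left panel 6 genes lie beyond the band with their whole yellow bar, and in the middle panel every yellow bar reaches into the band.

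Between the adult and the neonatal array, 4 of the 10 genes were at least 2-fold higher in the adult array and 0 were lower, against 21.8% of 10404 genes at least 2-fold apart, 11.1% higher and 10.7% lower. They were Tgfbr2 (1.09 ± 0.09), Tgfbr3 (2.13 ± 0.06), Ltbp1 (1.66 ± 0.13) and Ltbp4 (1.15 ± 0.08). The median of the 10 genes was 0.53, and that of all genes measured was -0.06. The ligands were not among them. Marker medians over this pair were 1.29 for macrophages, 0.21 for fibroblasts and -4.18 for cardiomyocytes, and their part was not tested.

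These steps depend on how the arrays were put on a common scale, and the adult array had the lowest raw median of the 3 (57.3). The raw intensity of the brightest probe was lower in the adult than in the neonatal array for 7 of the 10 genes, Tgfbr2 included. With background correction and no scaling between arrays, the median of all genes measured was -1.15 for adult minus neonatal, and Tgfbr2 then turned to -0.04, Tgfbr3 to 0.97, Ltbp1 to 0.39 and Ltbp4 to 0.40. Without scaling none of the 10 genes was 2-fold higher, and Tgfb1 (-1.06) and Tgfb2 (-1.41) were lower. In that setting 263 of all 10404 genes measured were higher and 5980 lower. With array medians centred the median of all genes was -0.79, Tgfbr3 alone was called higher (1.33) and Tgfb2 was called lower (-1.05). Of all genes measured, 444 were then higher and 4039 lower. Relative to the median of all genes, quantile normalization gave 1.15 for Tgfbr2, 2.19 for Tgfbr3, 1.72 for Ltbp1, 1.22 for Ltbp4 and -0.09 for Tgfb2. The settings without a quantile step gave 1.11, 2.12, 1.54, 1.55 and -0.26 in that order, the same for each of them by construction, since they shift all genes of an array alike.

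Between the adult and the embryonic array, which share their values with the pairs above, 8 of the 10 genes were at least 2-fold higher in the adult array and 0 were lower. The background was 44.3% of 10542 genes at least 2-fold apart, 21.4% higher and 22.9% lower. Of the 18 member probes measured over this pair 13 were higher and 0 lower, against 41.5% of all probes measured that were at least 2-fold apart in either direction. Ltbp4 was at least 278-fold, Ltbp2 at least 85.8-fold and Tgfb1 at least 4.09-fold higher on the quantile-normalized scale, and without scaling their log2 bounds were 7.79, 5.71 and 1.45. Tgfbr2 was 61-fold higher (5.93 ± 0.12), Ltbp3 18-fold (4.17 ± 0.05), Tgfb3 11.8-fold (3.56 ± 0.10), Tgfbr3 5.38-fold (2.43 ± 0.06) and Ltbp1 2.64-fold (1.40 ± 0.08). Without scaling, the log2 differences were 5.21 for Tgfbr2, 3.34 for Ltbp3, 2.78 for Tgfb3 and 1.56 for Tgfbr3. With the mean over probes, Tgfbr2 was at 2.31, Ltbp2 at a bound of 2.38 and Ltbp3 at 3.36. Marker medians over this pair were 6.15 for fibroblasts, 5.04 for macrophages, 3.18 for smooth muscle and pericytes and -5.45 for cardiomyocytes, and their part was not tested. Tgfb2 (-0.39 ± 0.07) and Tgfbr1 (0.71 ± 0.08) stayed under 2-fold, but Tgfb2 was called lower with array medians centred (-1.16) and without scaling (-1.36). Of all 10542 genes measured, 4043 and 4653 were lower in these settings. Ltbp1 lost its call with array medians centred (0.65), without scaling (0.45) and with the mean over all its probes (0.06).

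**Figure D3:**
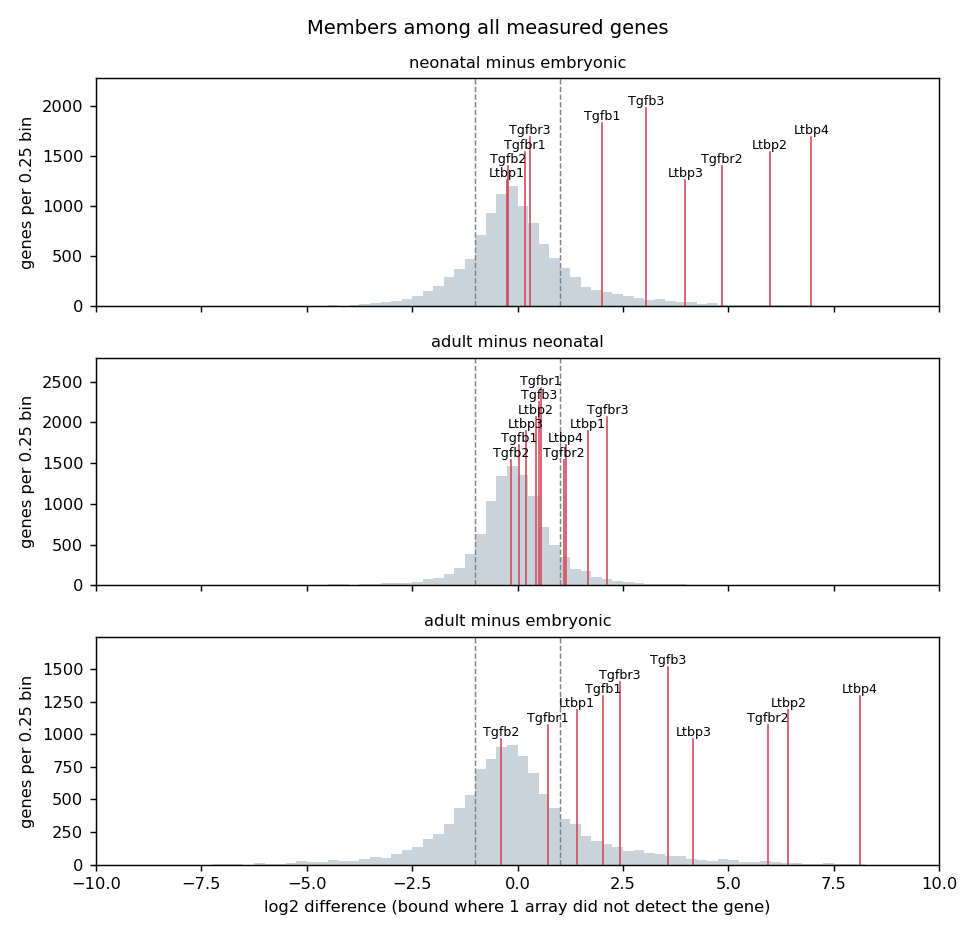
Grey bars count all genes measured in a pair of arrays by log2 difference in bins of 0.25, and red lines place the 10 genes among them, with dashed lines at 2-fold. In the upper panel Tgfb2, Tgfbr1, Tgfbr3 and Ltbp1 lie in the central peak and the other 6 genes lie to its right, as far as 6.97.

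Promoter windows were read for the genes at both ends of the neonatal minus embryonic order, to show the sequences around the start of genes that differed most and of genes that stayed under 2-fold. RefSeq windows of 250 bases before to 50 after a start (assembly GRCm38.p6) were matched for 8 of the 10 genes, in 12 windows, Ltbp4 having 3, of which a pair overlap, and Tgfbr1 and Ltbp1 more than 1. The motifs searched on both strands were TATAAA (the TATA box), CCAAT (the CCAAT box), GGGCGG (a GC box), TGACGTCA (the cyclic AMP response element), TGANTCA (an AP-1 site), CACGTG (an E-box), CAGACA (a Smad-type element) and the CArG box of serum response factor, and capitals mark their matches, on either strand. Among genes with large differences, Ltbp4 is shown for its upstream start (chr7:27337563-27337862, minus strand), with Ltbp2 (chr12:84876442-84876741, minus strand) and Tgfbr2 (chr9:116175314-116175613, minus strand).
Ltbp4: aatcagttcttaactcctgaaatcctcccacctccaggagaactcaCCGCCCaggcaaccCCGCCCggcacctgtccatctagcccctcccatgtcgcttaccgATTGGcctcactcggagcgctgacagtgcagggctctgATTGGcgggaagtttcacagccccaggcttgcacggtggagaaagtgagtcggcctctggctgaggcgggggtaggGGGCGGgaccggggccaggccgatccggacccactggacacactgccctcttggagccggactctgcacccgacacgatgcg
Ltbp2: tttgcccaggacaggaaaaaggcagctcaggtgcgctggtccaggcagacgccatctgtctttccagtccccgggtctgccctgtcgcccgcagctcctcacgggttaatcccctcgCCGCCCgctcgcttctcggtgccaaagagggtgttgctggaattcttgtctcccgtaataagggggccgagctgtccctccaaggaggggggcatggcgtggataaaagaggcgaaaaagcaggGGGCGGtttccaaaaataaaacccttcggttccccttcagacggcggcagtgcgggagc
Tgfbr2: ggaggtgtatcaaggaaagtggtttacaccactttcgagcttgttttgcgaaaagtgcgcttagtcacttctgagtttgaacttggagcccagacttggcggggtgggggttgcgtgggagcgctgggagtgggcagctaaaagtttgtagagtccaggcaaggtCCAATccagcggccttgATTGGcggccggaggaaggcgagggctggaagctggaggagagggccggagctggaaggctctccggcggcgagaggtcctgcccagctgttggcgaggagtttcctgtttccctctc
Among genes under 2-fold, Tgfb2 (chr1:186705940-186706239, minus strand), the upstream start of Tgfbr1 (chr4:47352972-47353271, plus strand) and the upstream start of Ltbp1 (chr17:75005279-75005578, plus strand) are shown.
Tgfb2: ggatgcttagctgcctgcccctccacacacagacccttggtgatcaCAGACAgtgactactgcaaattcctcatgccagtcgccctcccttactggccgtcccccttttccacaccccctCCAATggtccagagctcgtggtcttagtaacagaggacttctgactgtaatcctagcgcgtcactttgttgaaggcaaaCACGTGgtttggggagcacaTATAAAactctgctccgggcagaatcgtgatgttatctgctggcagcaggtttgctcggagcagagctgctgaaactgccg
Tgfbr1: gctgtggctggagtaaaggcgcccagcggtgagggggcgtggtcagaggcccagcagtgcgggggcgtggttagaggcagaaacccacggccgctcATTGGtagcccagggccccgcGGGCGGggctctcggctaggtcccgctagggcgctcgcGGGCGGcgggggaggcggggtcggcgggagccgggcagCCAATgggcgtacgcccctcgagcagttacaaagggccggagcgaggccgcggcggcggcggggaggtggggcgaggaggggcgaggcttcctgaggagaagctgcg
Ltbp1: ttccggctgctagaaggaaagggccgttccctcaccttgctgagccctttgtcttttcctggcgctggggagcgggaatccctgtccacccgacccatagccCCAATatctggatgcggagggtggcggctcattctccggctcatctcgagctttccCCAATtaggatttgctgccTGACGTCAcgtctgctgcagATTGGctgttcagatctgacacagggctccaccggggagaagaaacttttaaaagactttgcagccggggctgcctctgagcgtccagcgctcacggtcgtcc
The Tgfb2 window held a TATAAA beginning 31 bases before the start and a CACGTG 51 bases before it. It was the only 1 of the 12 windows with either, against 13.6% and 7.15% of all 32851 windows. TGACGTCA stood 73 bases before the upstream Ltbp1 start and in no other of the 12, against 1.79% of all windows. GGGCGG was in 6 of the 12 windows, from Tgfb1, Tgfbr1, Ltbp2 and Ltbp4, against 35.7% of all, and CCAAT in 6, against 37.4%. CAGACA was in 4 of the 12 (21% of all), TGANTCA in 1, that of Ltbp3 where it overlaps CAGACA (7.81% of all), and the CArG box in 0 (1.63% of all). Both GGGCGG and CCAAT occurred in genes past 2-fold and in genes under it. A match describes the letters of the window and was not tested as a site.

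Probe by probe, 19 of the 30 probes were detected on at least 1 array, 11 on all 3 and 11 on none. Over the neonatal and embryonic pair 8 of 19 measured probes were at least 2-fold higher and 0 lower. Of all probes measured, 34.9% were at least 2-fold apart in either direction, and 8 of 19 is not far from that share. All 8 were higher, however, and the share of all probes that were higher was not counted. Among all genes measured over this pair, 17.6% were higher. Those 8 belonged to the same 6 genes, with 2 each for Ltbp3 and Ltbp4. For Ltbp4 the dimmer probe, with raw intensities of 63.2 (embryonic), 429.2 (neonatal) and 1303.1 (adult), was at least 3.65-fold higher in the neonatal than in the embryonic array, and its adult level was 8.03-fold higher than the neonatal one (3.01 ± 0.12), more than the 2.22-fold of the bright probe.

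Probes of the same gene did not always give the same step between the adult and the neonatal array. Another Ltbp3 probe had raw intensities of 79.2 (embryonic), 241.2 (neonatal) and 490.9 (adult), and its adult level was 5.4-fold higher than the neonatal one (2.43 ± 0.11), while the bright pair of Ltbp3 probes stayed under 2-fold. A second Tgfbr2 probe had raw intensities of 189.2 (adult) and 131.1 (neonatal) and, after normalization, was 3.8-fold higher in the adult array. Most Ltbp1 probes were not detected: 6 of its 8 were below the detection threshold on every array. Which transcripts the probes read was not examined, since no probe sequences were used here.

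**Figure D4:**
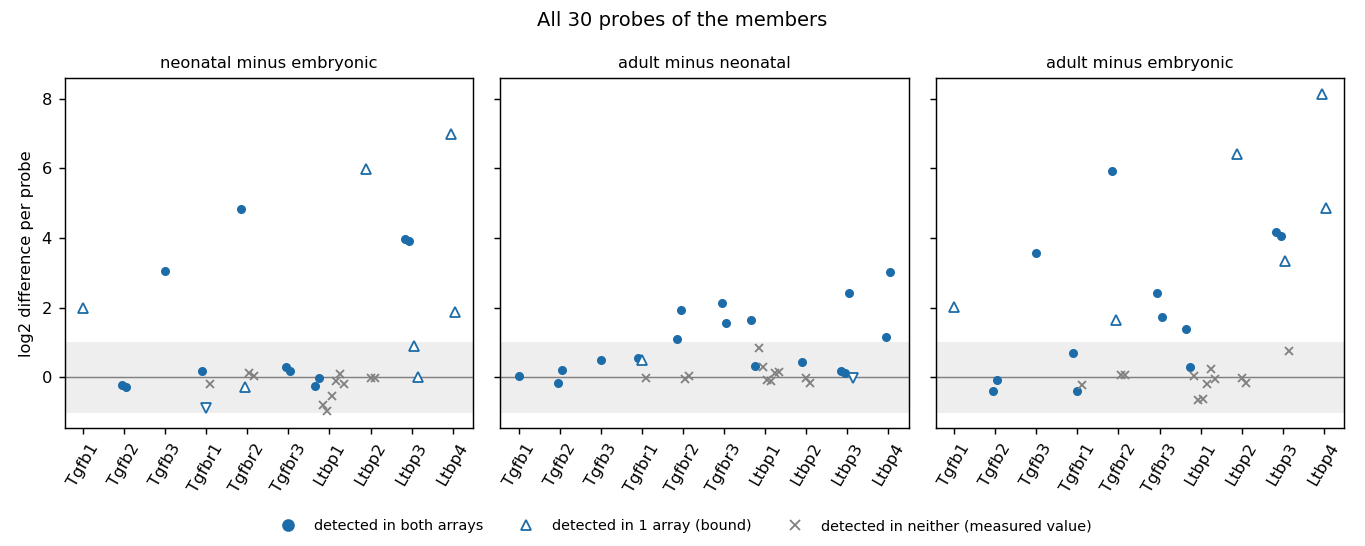
Log2 difference of every probe of the 10 genes for the 3 pairs of arrays, as filled circles where both arrays detected the probe, open triangles for bounds grey crosses where neither did and a grey band for under 2-fold. In the left panel the crosses of Ltbp2 and Tgfbr2 lie near 0 while their brightest probes stand at 5.99 (a bound) and 4.84.

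Other genes of the pathway were followed in 4 lists, whose calls were made with quantile normalization alone. Calls that involve the adult array therefore carry the dependence on scaling described above. Without scaling the median of all genes measured was -1.15 for adult minus neonatal, -0.81 for adult minus embryonic and 0.26 for neonatal minus embryonic. Proteins that activate or store TGF-beta gave 6 calls higher in the neonatal than in the embryonic array and 0 lower among 14 measured members, against 17.6% and 17.2% of all genes, for a median of 0.97 against -0.10 for all genes. The fibrillin gene Fbn1, whose microfibrils hold the binding proteins, was 75.5-fold higher (6.24 ± 0.09). Emilin1, which restrains processing of the precursor, was 23.9-fold higher and Mmp2, a matrix protease that can release TGF-beta, 188-fold higher. The precursor protease gene Furin differed by -0.30 ± 0.17. Between adult and neonatal, 3 of 14 were higher in the adult array and 1 lower, not far from the shares of all genes (11.1% and 10.7%), with a median of 0.02. Thbs1, for the activator thrombospondin 1, was 3.35-fold, Nrros, which holds latent Tgfb1 on macrophages, 2.78-fold and the protease gene Mmp9 2.35-fold higher, and Mmp14 was 2.26-fold lower. Macrophage markers reaching detection numbered 3 of 15 at the embryonic, 13 at the neonatal and 13 at the adult stage, with summed intensities of 1060, 21900 and 49900, and their part in the Nrros value was not tested.

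The signal transducers held 2 groups, intracellular proteins and surface receptors. Of 8 measured, 2 were higher in the neonatal than in the embryonic array and 0 lower, for a median of -0.22, against 17.6% and 17.2% of all genes, so 2 of 8 is near the background. Those 2 are surface receptors of endothelial cells: Eng, for endoglin, at least 14.6-fold and Acvrl1, for ALK1, at least 5.29-fold. Smad2 differed by -0.63 ± 0.07 and Smad3 by 0.39 ± 0.08. Tab1, for an adaptor of the kinase TAK1, differed by -0.69 ± 0.09. Over the adult and embryonic pair, 3 of 8 were lower in the adult array and 2 higher, against 22.9% and 21.4% of all genes. Tab1, Smad2 and Tab2 were 3.27-fold, 2.42-fold and 2.16-fold lower, and Eng and Acvrl1 at least 26.9-fold and 13.1-fold higher. Between adult and neonatal, 1 of 8 was higher in the adult array and 1 lower, against 11.1% and 10.7% of all genes. Acvrl1 was 2.48-fold higher and Tab1 2.03-fold lower. Endothelial markers reaching detection numbered 5 of 12 at the embryonic, 11 at the neonatal and 9 at the adult stage, with summed intensities of 1370, 6650 and 5710, and their part in the Eng and Acvrl1 values was not tested. Smad4 and Smad6 were not analysed here.

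Feedback inhibitors and co-repressors were mixed. Against the embryonic array, the neonatal one had 3 of 10 measured members higher and 1 lower (median 0.50), against 17.6% and 17.2% of all genes, near the background. Pmepa1, a target of the pathway that sequesters Smad2 and Smad3, was at least 7.58-fold higher, Ski, a Smad co-repressor, 3.98-fold and Tgif1, another, 3.14-fold, and Tgif2 was at least 2.36-fold lower. The inhibitory Smad gene Smad7 was not detected on any array. In the adult array 0 of 9 were higher and 1 lower than in the neonatal array, against 11.1% and 10.7% of all genes, near the background. The lower gene was Tgfb1i1 (Hic-5) at -1.26 ± 0.09.

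Genes known to be induced by TGF-beta in fibroblasts were higher in the neonatal than in the embryonic array for 12 of 18 measured members and lower for 1, Tsc22d1 (-2.53 ± 0.11). Their median was 2.25, and 17.6% of all genes were higher and 17.2% lower. Col1a1 was at least 193-fold, Col3a1 134-fold and Lox, for lysyl oxidase, 114-fold higher. Acta2, for smooth muscle actin, differed by 0.08 ± 0.09. Several of these genes are fibroblast markers too (Col1a1, Col1a2, Col3a1, Postn), and fibroblast markers differed over the same pair with a median of 6.26.

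Between adult and neonatal the induced genes divided: 5 of 18 were higher and 6 lower in the adult array, against 11.1% and 10.7% of all genes, with a median of -0.62. Itga11, a collagen-binding integrin, was 8.98-fold, Junb 6.02-fold and Tgfbi 4.5-fold higher, while Postn, for periostin, was 3.9-fold, Lox 3.47-fold and Tagln 3.15-fold lower. Fibroblast markers had a median of 0.21 over this pair, with 2 of 13 higher and 3 lower. Over the adult and embryonic pair, 13 of 17 induced genes were higher in the adult array and 1 lower, and 9 of 11 activators and niche proteins were higher and 0 lower, against 21.4% higher and 22.9% lower among all genes.

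**Figure D5:**
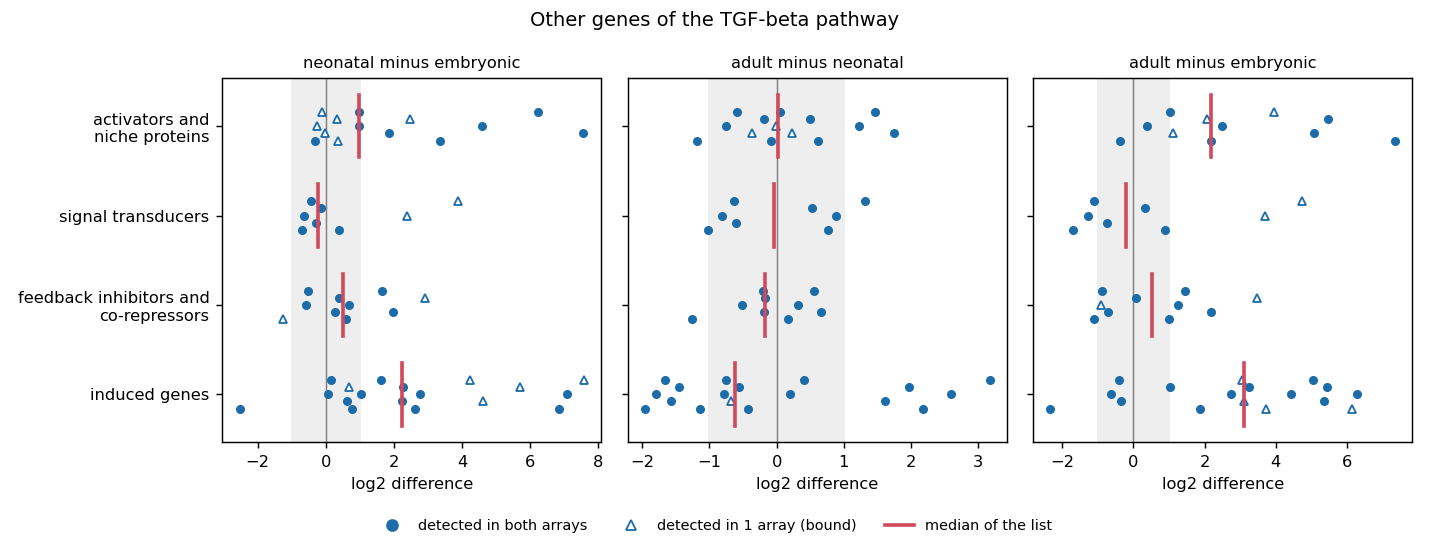
Log2 difference of the measured genes of 4 pathway lists for the 3 pairs of arrays, with open triangles for bounds, red bars for the median of a list and the grey band for under 2-fold. In the left panel the induced genes have a median of 2.25 and the transducers one of -0.22, and in the middle panel all 4 medians lie between -0.62 and 0.02.

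For the member with the widest range in each role, the genes with the most similar profile were found by the Euclidean distance between log2 values over the 3 arrays, each gene centred on its own mean, among 10921 other detected genes. Nearest to Tgfb3 were Btk, Rnf150 and Col27a1, nearest to Tgfbr2 were Lgals3 (galectin 3), Egfr and Mxra8, and nearest to Ltbp4 were Tnxb (tenascin-X), Bgn (biglycan) and Ifitm3, all at distances of at most 0.22. The embryonic values of Ltbp4 and of all these genes except Mxra8 lay below the lowest embryonic level detected (6.27). Those distances therefore rest in part on readings not above background, and the order among the neighbours carries no information. With 3 points a profile, many genes are close by construction. Tgfb1 and Ltbp4 lie on the same chromosome, 7, with 29 protein-coding genes between them, and Tgfb3 and Ltbp2 on chromosome 12 with 19 between them.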

How the data were processed

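The authors deposited a raw table of bead intensity for 46632 probes. Per the file headers it also holds each probe's bead spread, bead count and detection score. The intensity is linear, and 0 values lay at or below 0. The deposited detection score rises with the intensity, and its complement served as detection p. The authors also deposited processed intensity with medians of 8.74, 8.75 and 8.74 (embryonic, neonatal, adult), whose normalization is unknown, and it served as an alternative. Its shares of values below 0 were alike too (27.9%, 28% and 27.9%). With arrays matched in this way, it is no independent check of the scaling between arrays. RNA was amplified to biotin cRNA (Ambion MessageAmp), per the labels' protocols.

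The neqc function of limma 3.58.1 (R 4.3.3) subtracted the background, estimated from detection p at 63.7, 65.0 and 49.8 in the same order, added an offset of 16, quantile normalized and took log2. Quantile normalization removes any shift shared by all genes of an array, and the offset draws dim probes together. The lowest detected levels were 6.27, 5.93 and 6.26. Genes were named through RefSeq (GRCm38.p6), by accession for 11877 and by symbol for 22852 probes; 134 with conflicting names were left out. The probe with the highest mean log2 stood for a gene. Bead standard errors were carried through each array's map of raw to log2 intensity. The steps were tested on simulated data in which all arrays shared the same profile and few probes changed, equally up and down. That setting cannot show how quantile normalization acts where many genes differ. Counting beads gives the precision of 1 array only.

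The members, lists and rules were chosen with earlier results of these data known. All members were named. Genes named from a list came from its 3 highest and 3 lowest for a pair or were those a result turns on, and not all of these are printed. Genes most like a member were the 3 nearest.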

Additional observations from a re-analysis of the deposited data

How the results depend on the processing

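For neonatal minus embryonic, all 42 values of the 6 called members under 7 alternatives (other scalings, no background correction, an offset of 50, the authors' processed intensity, the mean over probes) kept both their sign and their call. These values are not independent of each other. The settings without a quantile step shift all genes of an array alike, and Tgfb3 has 1 probe, so its mean over probes is its main value. The exceptions by construction were the filters. With detection required in both arrays, 3 of the 7 members still measured were higher, against 1180 of 8495 genes. For adult minus embryonic, 5 members were higher under that filter, against 1362 genes. The embryonic array did not detect the other called members. For adult minus neonatal, 27 of 28 values kept their sign and 19 their call; for adult minus embryonic, all 56 values of the 8 called members kept their sign and 53 their call, the exceptions being Ltbp1 values. The member count of 4 higher became 1 with array medians centred, 0 with no scaling between arrays, 2 with the mean over probes and 2 at a 3-fold threshold. The count of 0 lower became 1 with medians centred (adult minus embryonic also 1) and 2 with no scaling (adult minus embryonic 1). Tgfbr2 turned to -0.04 with no scaling. The cause was not tested beyond the construction of each setting. No scaling, and centring on the probes detected on all arrays, were added after the data were seen.

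Counts over all genes moved too. The genes measured numbered 10560 (neonatal minus embryonic), 10404 (adult minus neonatal) and 10542 (adult minus embryonic). Requiring detection in both arrays left fewer, 8495 for neonatal minus embryonic. For neonatal minus embryonic, genes higher numbered 1180 with detection in both arrays and 1125 at 3-fold, and genes lower 1201 with no scaling and 853 at 3-fold; higher genes made up 50.7% of calls, 61.3% with medians centred and 69.1% with no scaling. For adult minus neonatal, genes higher numbered 444 (medians centred), 263 (no scaling) and 535 (3-fold), and genes lower 4039, 5980 and 449; the higher share was 51%, 9.9% with medians centred, 4.21% with no scaling and 67.5% centred on detected probes. For adult minus embryonic, genes higher numbered 1417 with no scaling and 1362 with detection in both arrays, and genes lower 4043 (medians centred), 4653 (no scaling) and 1341 (3-fold); the higher share was 48.3%, 28.3%, 23.3% and 58.7% in the order given before. No paired analysis was possible because each stage had 1 array and the labels carry no replicate numbers. Values near the lowest detected level are limited by signal over background.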
